A study of Mus musculus with 6 samples.

Results

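The nuclear-encoded oxidative phosphorylation genes were compared by respiratory complex between p120 catenin knockout and wild-type pancreatic cells. Members were the genes named by a single symbol in the platform annotation and starting with Ndufa, Ndufb, Ndufc, Ndufs, Ndufv, Sdha to Sdhd, Uqcr, Cox4 to Cox8 or Atp5. This gave 89 of the 20259 genes measured: 34 subunits of complex I, 4 of complex II, 8 of complex III, 16 of complex IV, 14 of complex V, and 13 assembly and accessory factors that share the prefixes. Counted among the 34 are Ndufs6b and Ndufa11b, copies of subunit genes. RNA came from cells of mouse pancreas sorted by FACS for GFP and was measured on 6 arrays, 3 of KCiMist1G mice with the p120f/f genotype and 3 of KCiMist1G mice with p120wt/wt. Mice of both groups were treated with tamoxifen when 7 to 9 weeks old, which starts recombination by Cre, and cells were sorted 2 weeks later. All 6 arrays therefore share the KCiMist1G background, and the groups differ by the p120 allele. The labels do not expand KCiMist1G. The series title calls it a mouse model of preinvasive pancreatic cancer. Mist1 is the protein of Bhlha15, a transcription factor of acinar cells, but the labels do not state the promoter that drives Cre, nor whether several animals were pooled for a replicate. The p-values therefore reflect the spread between the labelled samples, which may be partly technical.

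Complexes I to IV form the electron transport chain of the inner mitochondrial membrane. Complex I (NADH dehydrogenase) and complex II (succinate dehydrogenase) pass electrons to ubiquinone, complex III passes them to cytochrome c, and complex IV (cytochrome c oxidase) passes them to oxygen. The protons pumped by complexes I, III and IV return through complex V, ATP synthase, which makes ATP. Most subunits are encoded in the nucleus and a few in mitochondrial DNA, and acinar cells use the ATP for the synthesis and secretion of digestive enzymes.

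Values are RMA log2 expression values, and a difference is the knockout mean minus the wild-type mean on that log2 scale. The targeted gene, Ctnnd1, read 5.61, 6.61 and 6.38 on the knockout arrays and 5.87, 6.81 and 6.44 in the wild type. These ranges overlapped, with a difference of -0.17 (SE 0.32, 95% interval -0.91 to 0.57, limma adjusted p = 0.922, exact permutation p = 0.6), so the group names rest on the labels, and whether the row's probes lie in the deleted exons is not known. The arrays' medians lay between 4.08 and 4.25, and correlations between arrays from 0.950 to 0.986. The acinar enzyme genes Cela1 (13.59 to 13.85) and Cel (13.32 to 13.46) were near the top of the scale on all 6 arrays. The row of Ptprc, the pan-leukocyte antigen CD45, read 8.38 to 9.92, with no detection call to set it against. The first knockout array stood apart from the other knockout arrays. Its mean acinar marker level was 10.24, against 10.73 to 11.04 on the other 5, and its mean leukocyte marker level was 8.79, against 7.66 to 8.49. In bulk RNA, fewer cells of a type and less RNA per cell cannot be told apart.

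None of the 89 members passed the test between genotypes. At a limma adjusted p under 0.05, 0 members were called, and over all genes 0% were called. The smallest adjusted p of a member was 0.907, against 0.241 for the leading gene of the whole table. The unadjusted p lay under 0.05 for 3 members, or 3.37%, against 3.49% of all genes. All 3 were higher in the knockout, where 2.31% of all genes were higher and 1.19% lower at that level. The 3 knockout arrays all lay above the wild-type arrays for 3 members and all below for 2, together 5.62% of members against 8.69% of all genes (6.21% above and 2.47% below). Neither share of members exceeded the share over all genes. With 3 arrays against 3, the smallest exact permutation p is 0.1. Weighting the arrays by limma's array weights, which gave nearly all weight in the knockout to its second array, was the only alternative that called members: 18 were higher, when 14.9% of all genes were called higher.

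The size of the differences was small for every complex. Differences of the 89 members ran from -0.23 for Ndufa3 to 0.49 for Ndufa12, with a median of 0.063 beside 0.055 over all genes. A member was higher in the knockout in 66 cases, or 74.2%, against 61.7% of all genes, but in 38 cases once each array was shifted to 1 common median, where the median of members was -0.021 and that of all genes -0.029. Under a further quantile normalization 66 were higher, against 57.0% of all genes, with medians of 0.095 and 0.028. Among genes above the median level, 53 of 74 members were higher, with a median of 0.066, against 5059 of 10130 genes, with a median of -0.0003. The 95% interval of the difference lay within 1 log2 unit of 0, a 2-fold change either way, for 89 of 89 members and for 92.9% of all genes. It lay within a 1.5-fold change either way for 69 members (77.5%), against 63.7% of all genes. The median difference was 0.071 in complex I, 0.067 in complex II, 0.097 in complex III, 0.040 in complex IV, -0.052 in complex V and 0.044 in the assembly and accessory factors. After the shift to 1 common median the values for complexes I, II and IV and for the factors were below 0 (-0.013, -0.017, -0.044 and -0.041), and under the quantile normalization those of complexes I to V were 0.141, 0.123, 0.156, 0.078 and 0.020. Each complex's median differed between the genotypes by less than the spread between arrays of 1 genotype, whose pooled SD of array medians was 0.173, 0.142, 0.196, 0.151 and 0.076 for complexes I to V and 0.103 for the factors.

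**Figure D1:**
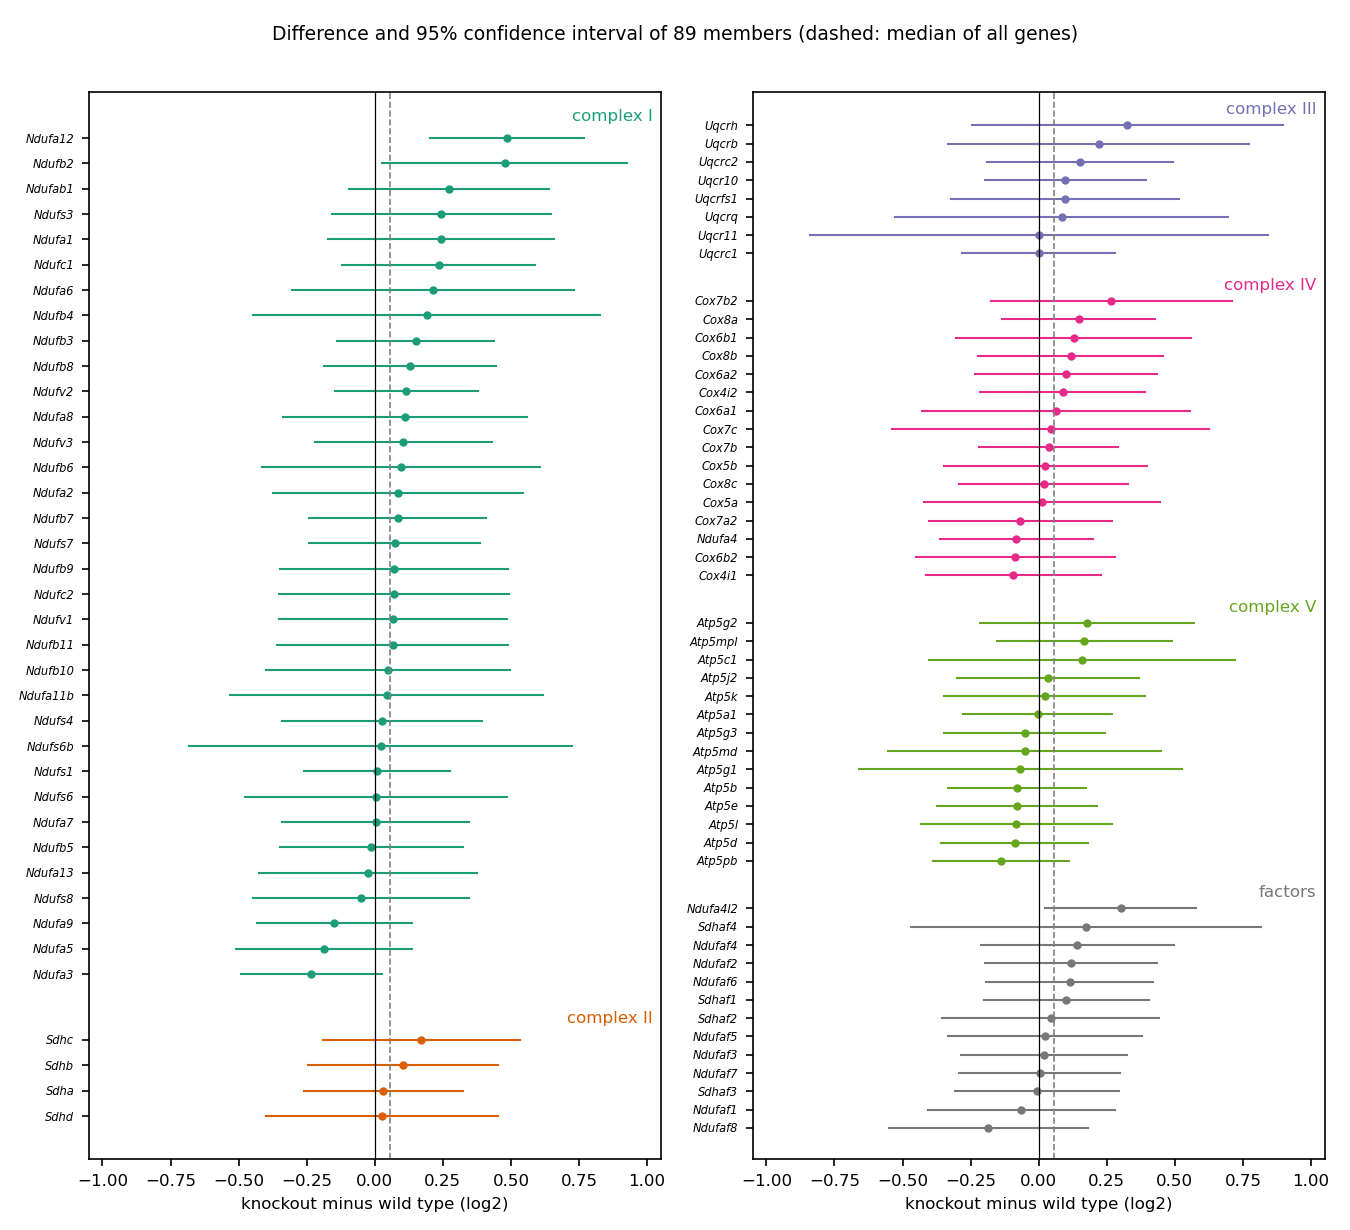
Each point is the knockout minus wild-type difference of 1 member (x axis, log2) with its 95% limma confidence interval as a bar, grouped by complex, and the dashed line is the median of all genes (0.055). Intervals of Ndufa12, Ndufb2 and Ndufa4l2 do not reach 0, and those of the other 86 members do.

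Complex I takes electrons from NADH through a peripheral arm and pumps protons through a membrane arm. Of its 34 members, 28 were higher and 6 lower in the knockout, a split of 16 and 18 after the shift to 1 common median. Ndufa12, an accessory subunit of the peripheral arm, read 8.74, 8.69 and 8.82 on the knockout arrays and 8.39, 8.26 and 8.13 in the wild type. The groups did not overlap, and the difference of 0.49 (SE 0.12) was the largest and best separated of all members, with an unadjusted limma p of 0.00456 and an adjusted p of 0.907. Ndufb2, an accessory subunit of the membrane arm, read 5.65, 5.56 and 6.13 in the knockout and 5.07, 5.503 and 5.34 in the wild type. Its groups did not overlap either, although knockout array 2 and wild-type array 2 lay close together, and the difference was 0.48 (SE 0.19, limma adjusted p = 0.907). Ndufa3, also of the membrane arm, lay the other way, at 6.45, 6.54 and 6.36 in the knockout and 6.71, 6.65 and 6.69 in the wild type, a difference of -0.23 (SE 0.11, limma adjusted p = 0.907). Ndufab1, the mitochondrial acyl carrier protein that complex I binds, read 7.86, 8.23 and 8.38 in the knockout and 7.96, 7.82 and 7.87 in the wild type. Its first knockout array fell inside the wild-type range while the other knockout arrays lay above it.

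The modules of complex I had medians on both sides of that of all genes. The electron-input module at the tip of the peripheral arm, which holds the flavoprotein Ndufv1 that oxidises NADH, had 8 of 8 members higher, with a median of 0.076, but 4 higher and 4 lower after the shift to 1 common median. The quinone module, which holds the core subunits Ndufs3, Ndufs7 and Ndufs8, had 4 higher and 3 lower, with a median of 0.003, and 2 higher and 5 lower after that shift. The membrane arm had 14 higher and 3 lower, with a median of 0.097, and 10 and 7 after it. The copies Ndufs6b and Ndufa11b were placed in none of these modules. Ndufv1 read 7.33, 7.81 and 7.95 in the knockout and 7.52, 7.72 and 7.65 in the wild type, so the wild-type arrays lay between the first knockout array and the other 2. Ndufs3 showed a similar order, at 8.76, 9.22 and 9.38 in the knockout and 8.88, 8.84 and 8.91 in the wild type. Ndufs1, the large iron-sulfur subunit, was nearly flat, at 5.78, 5.72 and 5.82 against 5.71, 5.71 and 5.88. Ndufv1, Ndufs3 and Ndufs1 were picked as core subunits after their values were seen.

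Complex II links the tricarboxylic acid cycle to the chain and is the only complex encoded wholly in the nucleus. All 4 subunits had positive differences, and under the shift to 1 common median Sdha and Sdhd turned negative (-0.05 and -0.06). Sdhc, a membrane anchor, read 6.36, 6.81 and 6.83 in the knockout and 6.56, 6.47 and 6.45 in the wild type (difference 0.17, SE 0.16). Sdhd, the other anchor, read 7.59, 8.10 and 8.22 in the knockout and 7.83, 7.998 and 8.002 in the wild type (difference 0.03, SE 0.18). For both anchors the first knockout array was the lowest of the 6 and the other knockout arrays were the highest. Sdhb, the iron-sulfur subunit, had the same order, except that knockout array 3 lay inside the wild-type range. It read 6.81, 7.29 and 6.94 in the knockout against 6.98, 6.89 and 6.86 in the wild type. Sdha, the flavoprotein that oxidises succinate, ran the other way: its first knockout array was the highest of the 6, at 7.57, beside 7.37 and 7.33 in the knockout and 7.32, 7.503 and 7.35 in the wild type.

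Complex III carries electrons from ubiquinol to cytochrome c. Of its 8 members, 7 were higher and 1 lower, or 5 and 3 after the shift to 1 common median. In all 8 the groups overlapped, when 8.69% of all genes did not overlap, and so few members give no result about the complex. Uqcrh, the hinge subunit near the cytochrome c site, read 7.66, 8.32 and 8.48 in the knockout and 8.16, 7.66 and 7.67 in the wild type, a difference of 0.33 (SE 0.24, limma adjusted p = 0.907). Knockout arrays 2 and 3 lay above the wild type, and the first lay at the level of the lowest wild-type arrays. Uqcrb, an accessory subunit, varied most within the wild type, at 8.18, 7.27 and 7.91, against 7.86, 8.18 and 7.97 in the knockout. Without the second wild-type array its difference was -0.04 instead of 0.22. Uqcrc2, a core protein, differed by 0.15 (SE 0.15) and Uqcr10, an accessory subunit, by 0.10 (SE 0.13). The catalytic Rieske protein, Uqcrfs1, read 5.82, 6.49 and 6.06 in the knockout and 5.995, 6.02 and 6.07 in the wild type, and was looked up after its values were seen.

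Complex IV reduces oxygen, and several of its subunits exist as a widespread isoform and a tissue isoform. Of its 16 members, 12 were higher and 4 lower in the knockout, or 6 and 10 after the shift to 1 common median. All 16 had overlapping groups, when 8.69% of all genes did not overlap. With so few members this is no result about the complex. The 10 widespread subunits had a median difference of 0.030, which the shift turned to -0.054, and the 6 tissue isoforms had a median of 0.094. Cox8a, the widespread form of subunit 8, read 7.89, 7.75 and 7.63 in the knockout and 7.55, 7.64 and 7.64 in the wild type (difference 0.15, SE 0.12). Cox4i1, the widespread form of subunit 4, read 6.33, 6.75 and 6.55 against 6.66, 6.60 and 6.64 (difference -0.09, SE 0.14). Cox6b1 read 7.48, 7.87 and 8.18 against 7.63, 7.78 and 7.74 (difference 0.13, SE 0.18), with the knockout arrays on both sides of the wild type. Cox6a1 read 8.30, 9.05 and 8.99 against 8.84, 8.67 and 8.65, again with the first knockout array lowest and the other 2 highest. Cox7b was the steadiest member in the knockout, at 7.27, 7.28 and 7.26, against 7.32, 7.18 and 7.20 in the wild type. Ndufa4, first assigned to complex I and now to complex IV, differed by -0.08 (SE 0.12), and Cox7a2, the widespread form of subunit 7a, by -0.07 (SE 0.14).

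The tissue isoforms of complex IV gave no genotype call. Cox7b2, a testis isoform of subunit 7b, read 2.71, 3.40 and 3.30 in the knockout and 2.84, 2.88 and 2.88 in the wild type. Its wild-type arrays were nearly equal (SD 0.019, n = 3), its first knockout array lay below them and the other 2 above, and the difference was 0.27 (SE 0.19, limma adjusted p = 0.907). Cox6a2, the heart and skeletal muscle form of subunit 6a, read 6.31, 5.91 and 5.90 in the knockout and 5.94, 5.96 and 5.91 in the wild type, so its difference of 0.10 came from the first knockout array, and without that array it was -0.03. Cox8b, the heart, skeletal muscle and brown fat form of subunit 8, read 4.38, 4.45 and 4.05 against 4.16, 4.29 and 4.08. Cox4i2, known as the lung form of subunit 4, read 5.88, 5.77 and 5.97 against 5.96, 5.67 and 5.73. The testis forms Cox6b2 and Cox8c had means of 5.29 and 4.18 in the knockout and 5.37 and 4.16 in the wild type, with differences of -0.09 (SE 0.16) and 0.02 (SE 0.13). The table holds no detection calls, so whether these rows lay above background is unknown. The striated muscle and brown fat markers measured beside them, Ckm (5.16 to 5.71), Acta1 (5.16 to 5.78) and Ucp1 (3.89 to 4.06), also had no call, and levels of different probes cannot be compared.

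**Figure D2:**
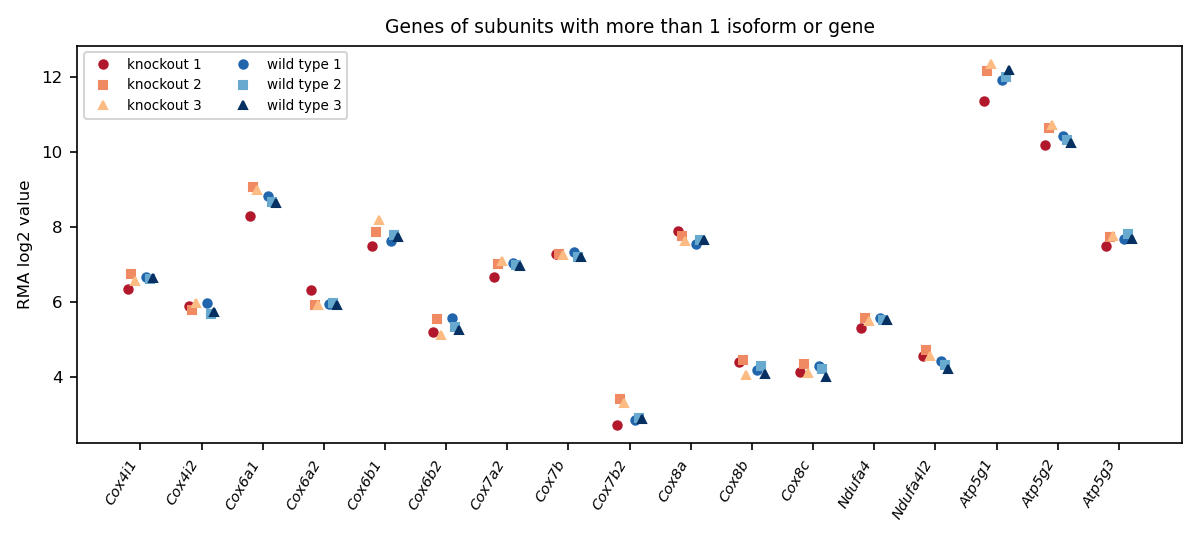
RMA log2 values (y axis) of each gene with a tissue isoform, a low-oxygen paralog or several gene copies of 1 subunit, with 1 marker per array, knockout on the left and wild type on the right of each gene. Only Ndufa4l2 has groups that do not overlap, a pattern of 8.69% of all genes. The first knockout array is the lowest of the 6 for Cox4i1, Cox6a1, Cox6b1, Cox7a2, Cox7b2, Ndufa4, Atp5g1, Atp5g2 and Atp5g3. It is the highest for Cox6a2 and Cox8a.

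Complex V had the lowest median, and it was the only complex with more members lower (9) than higher (5) in the knockout, a split that turned to 5 lower and 9 higher under a further quantile normalization. Atp5pb, subunit b of the peripheral stalk that holds the catalytic head still, read 6.42, 6.51 and 6.49 in the knockout and 6.60, 6.58 and 6.65 in the wild type. All 3 knockout arrays lay below the wild type, and the difference was -0.14 (SE 0.11, limma adjusted p = 0.907). The catalytic head and shaft had 1 of 5 members higher, with a median of -0.079, and 3 of 5 higher under that normalization. Atp5b, the beta subunit with the catalytic sites, read 9.20, 9.26 and 9.16 in the knockout and 9.28, 9.24 and 9.34 in the wild type (difference -0.08, SE 0.11). Atp5a1, the alpha subunit, read 8.46, 8.66 and 8.56 against 8.66, 8.53 and 8.50 (difference -0.004, SE 0.12). Atp5d, the delta subunit at the foot of the shaft, differed by -0.09 (SE 0.12). Atp5a1 and Atp5b were looked up after their values were seen.

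The membrane part of complex V, which carries the protons, had 4 members higher and 4 lower, with a median of -0.015, or 2 and 6 after the shift to 1 common median and 6 and 2 under quantile normalization. Subunit c of its rotating ring is encoded by 3 nuclear genes that give the same mature protein. Atp5g1 read 11.38, 12.17 and 12.37 in the knockout and 11.92, 11.99 and 12.20 in the wild type (difference -0.07, SE 0.25). Atp5g2 read 10.18, 10.63 and 10.72 against 10.44, 10.32 and 10.23 (difference 0.18, SE 0.17). Atp5g3 read 7.499, 7.74 and 7.77 against 7.67, 7.82 and 7.67 (difference -0.05, SE 0.13). In all 3 genes the first knockout array was the lowest of the 6, by the widest margin in Atp5g1. Atp5mpl, a small membrane subunit, read 5.62, 5.92 and 5.98 against 5.75, 5.70 and 5.57 (difference 0.17, SE 0.14).

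Of the 13 assembly and accessory factors, 10 were higher and 3 lower, or 6 and 7 after the shift to 1 common median. Ndufa4l2, a paralog of Ndufa4 that is induced in low oxygen, read 4.56, 4.71 and 4.55 in the knockout and 4.41, 4.30 and 4.21 in the wild type. The groups did not overlap, with a difference of 0.30 (SE 0.12) and a limma adjusted p of 0.907. The transcription factor gene Hif1a, which acts in low oxygen, differed by -0.30 (SE 0.17, limma adjusted p = 0.907), with 7.88, 7.46 and 7.23 in the knockout against 7.87, 7.82 and 7.78. Ndufaf8, a complex I assembly factor, read 6.83, 7.32 and 7.10 in the knockout and 7.24, 7.16 and 7.40 in the wild type (difference -0.18, SE 0.16). The complex I assembly factors Ndufaf4 and Ndufaf2 differed by 0.14 (SE 0.15) and 0.12 (SE 0.13). The 4 Sdhaf genes, which assemble complex II, ran from -0.005 for Sdhaf3 to 0.17 for Sdhaf4.

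Several members are represented by more than 1 row of the array, and those rows did not always give the same answer. There were 19 such members: all rows had the same sign in 10 and differed in 9. Ndufa12, the best separated member, had a second row at 7.26, 7.62 and 7.26 in the knockout and 7.61, 7.37 and 7.40 in the wild type, where the groups overlapped and the difference was -0.08. The second row of Ndufb2 gave 0.01 in place of 0.48. The second row of Uqcrh gave -0.09 in place of 0.33. Cox6a1 differed by 0.06 in its first row, and by -0.22 in its second, where all knockout arrays (8.42, 8.59 and 8.79) lay below the wild type (8.80, 8.80 and 8.87). Atp5md, a small membrane subunit of complex V, had 3 rows, with differences of -0.05, -0.04 and -0.39, of which the last had all knockout arrays below the wild type. Over the 25 single-symbol rows of members that were not used, knockout arrays lay above the wild type in 1 and below it in 2. Over all genes, each by its used row, these patterns held for 6.21% and 2.47%. Rows can read different exons, pseudogenes or close copies, which these files do not separate. With only the 70 members that have 1 row, the median difference was 0.057, a restriction chosen after seeing the data.

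**Figure D3:**
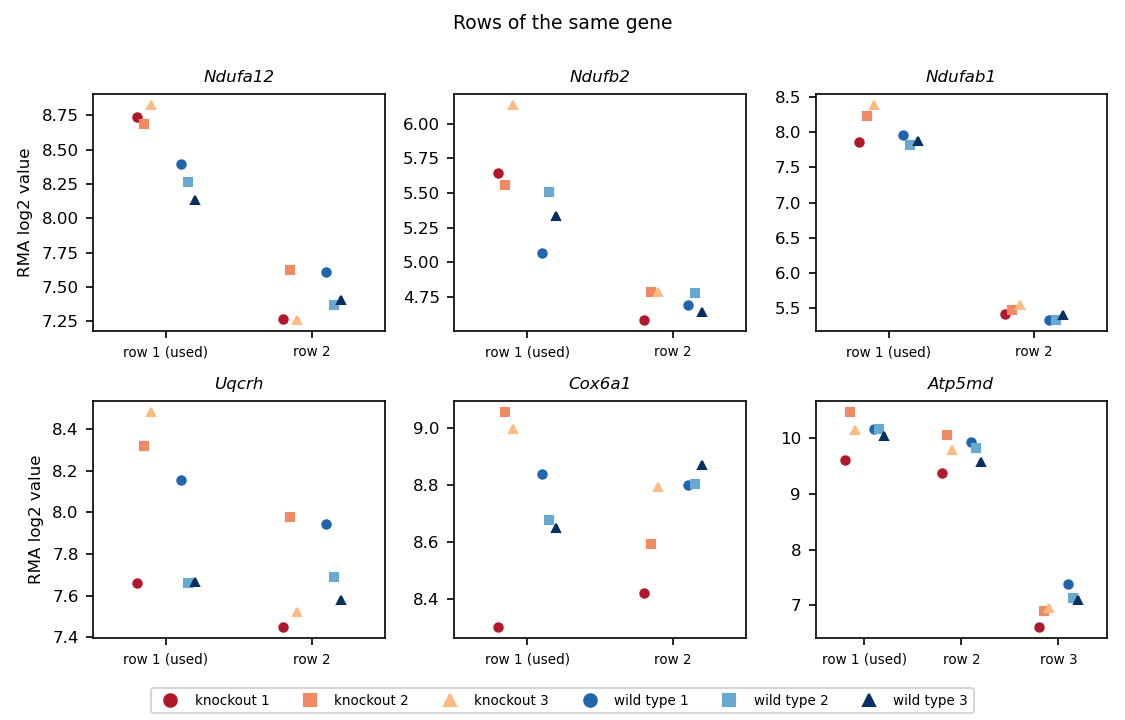
RMA log2 values (y axis) on the 6 arrays for each single-symbol row of 6 members with more than 1 row, chosen after their values were seen; the row with the highest mean was the one used. The separation of knockout and wild-type arrays in the used row of Ndufa12 is absent from its second row.

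Rows with these prefixes that carry several symbols numbered 22 and were left out. Ndufa10, Ndufa11, Ndufs5, Atp5h, Atp5j, Atp5o, Cox6c and Cox7a2l are represented only by such rows, which are shared with pseudogenes or neighbouring genes. None of the 22 rows had groups that did not overlap, against 8.69% of all genes by their used rows. A row shared by Cox7a2l, a factor that joins complexes into supercomplexes, and Gm6969 had the largest difference among them, 0.67, with 8.69, 9.62 and 9.71 in the knockout and 8.76, 8.62 and 8.63 in the wild type. The second Cox7a2l row differed by 0.003, and both rows were looked up after their values were seen.

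The spread of members between arrays of 1 genotype exceeded the difference between genotypes, and the first knockout array was its main feature. After each gene was centred on its mean over the 6 arrays, the median of all members was -0.172, 0.144 and 0.139 on the knockout arrays and 0.004, -0.035 and -0.054 in the wild type. The latter thus lay between the first knockout array and the other 2. The first knockout array was the lowest of the 6 for 51 of 89 members (57.3%), against 29.5% of all genes and 34.0% of genes above the median level. The highest array was knockout array 2 for 31 members and knockout array 3 for 33. Of the 20259 genes, knockout array 2 was highest for 4141 and knockout array 3 for 6871. The first knockout array lay below both other knockout arrays for 69 members (77.5%), against 56.7% of all genes. It was the lowest for 52 members after the shift to 1 common median (58.4%, against 30.9% of all genes). Under quantile normalization it was the lowest for 59 (66.3%, against 33.2% of all genes and 40.6% of genes above the median level). These shares are descriptions of 1 array and carry no test.

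**Figure D4:**
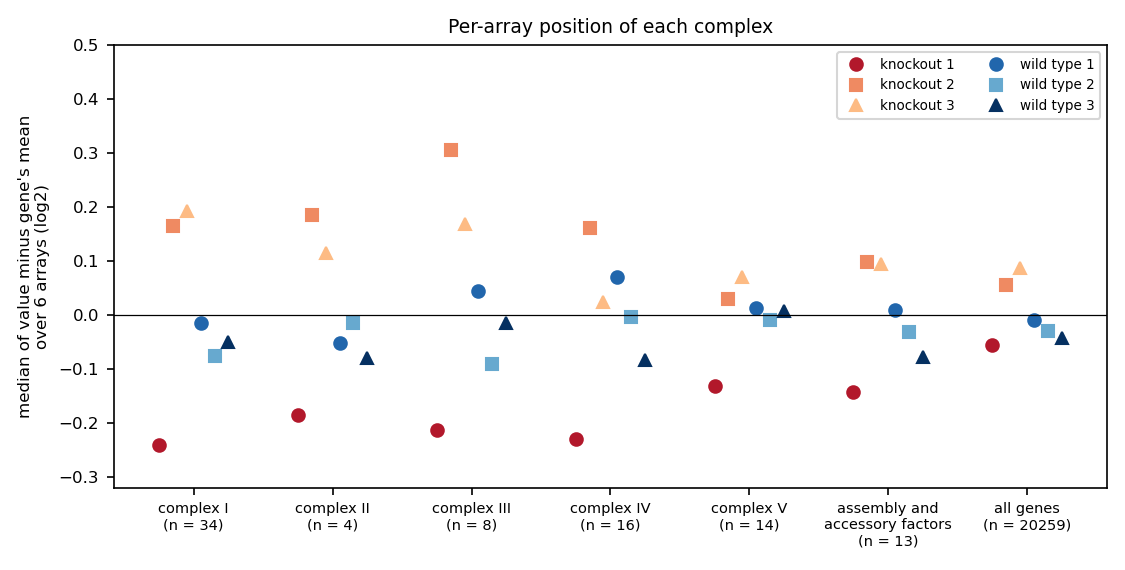
For each complex, the assembly and accessory factors and all genes, each marker is 1 array's median of value minus gene mean (y axis, log2). The first knockout array is lowest in every complex, from -0.240 in complex I to -0.131 in complex V, and the second knockout array is highest in complexes II, III and IV.

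The gap was widest in complexes I and III and narrowest in the factors and complex V. The median of the first knockout array minus the mean of the other 2 knockout arrays was -0.432 in complex I, -0.382 in complex II, -0.412 in complex III, -0.278 in complex IV, -0.246 in complex V and -0.239 in the factors. Over all genes it was -0.147. Uqcr11, a small accessory subunit of complex III, had the widest gap, -1.35, with 8.31, 9.54 and 9.80 in the knockout and 9.36, 9.05 and 9.24 in the wild type. Its second row showed the same order, with 6.17, 6.93 and 6.97 against 6.75, 6.64 and 6.60. Its genotype difference was 0.001, since the knockout arrays lay on both sides of the wild type. Ndufb4 (-0.99), Atp5g1 (-0.89), the Ndufs6 copy Ndufs6b (-0.88), Uqcrq (-0.76), Uqcrh (-0.74), Cox6a1 (-0.72), Ndufb6 (-0.70), Cox7c (-0.70) and Atp5md (-0.70) followed. They were picked by the size of this gap after it was seen.

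Within complexes the gap was uneven. In complex IV the first knockout array was lowest for 8 of the 10 widespread subunits and for 1 of the 6 tissue isoforms. Array means were 4.64 to 4.90 for the isoform rows and 7.34 to 7.75 for the widespread subunits. Among the isoform rows, Cox7b2 had the lowest mean over the 6 arrays (3.00) and a gap of -0.64. Cox6a2 had the highest mean (5.99) and a gap of 0.40. Without detection calls it is unknown whether the isoform rows lay above background, and the part of signal level in the gap was not tested. In complex V it was lowest for 6 of 8 members of the membrane part and for 1 of 5 members of the catalytic head and shaft, or 0 of the 5 after the shift to 1 common median and 3 under quantile normalization. In complex I it was lowest for 21 of 34 members, in complex II for 3 of 4 and in complex III for 5 of 8. Of the 89 members, 74 lay above the median level of all genes, and among these it was lowest for 60.8%.

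**Figure D5:**
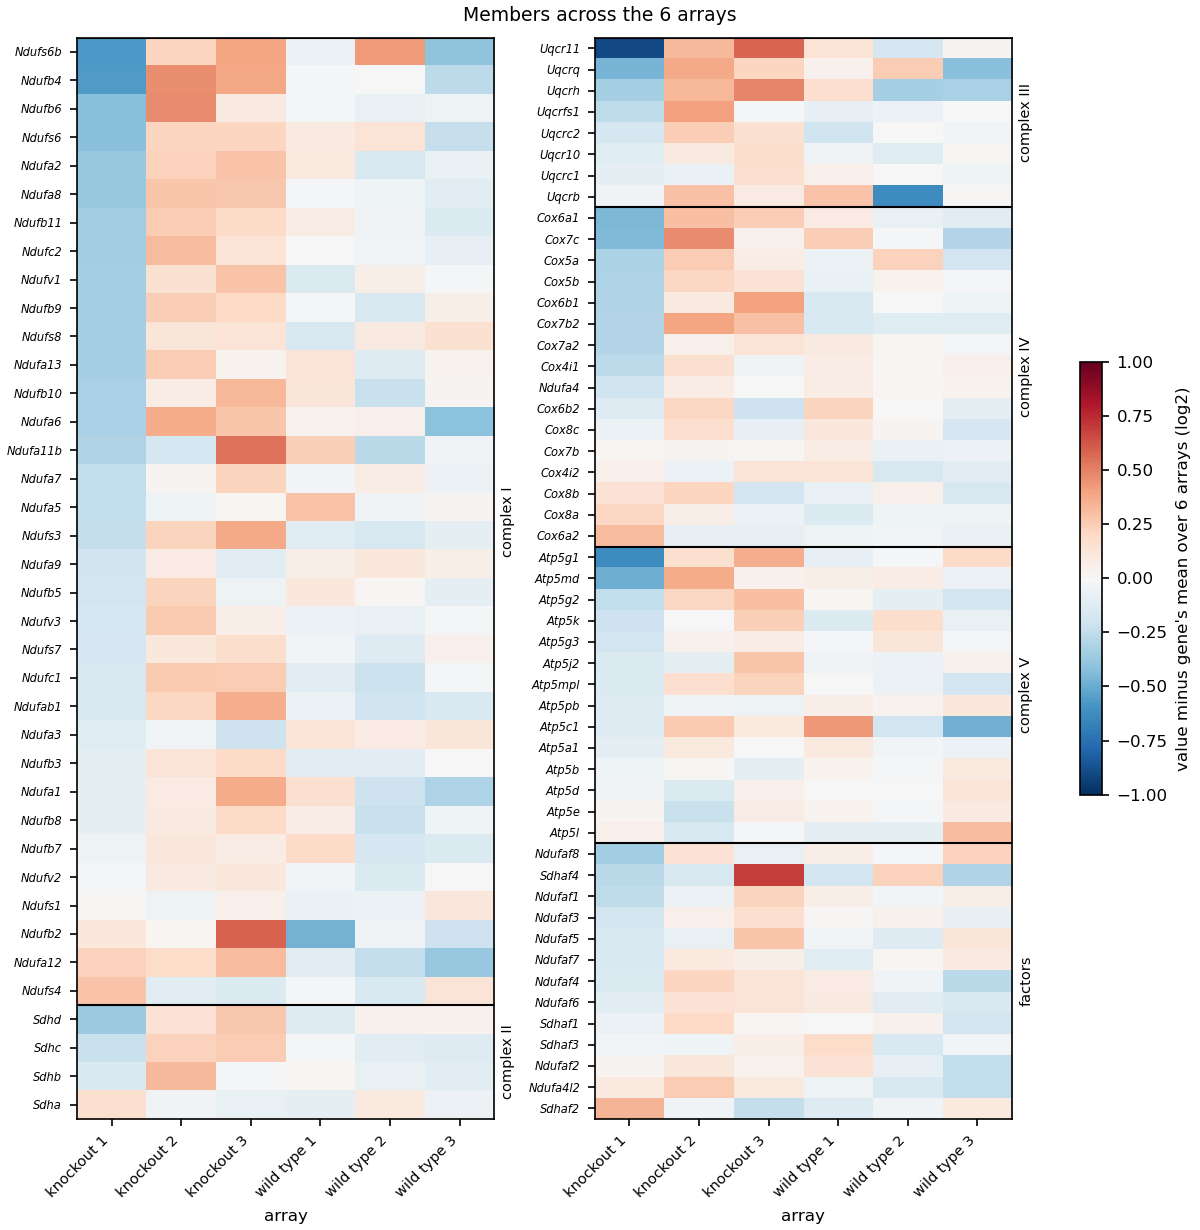
Colour shows the value minus the gene's mean over the 6 arrays (log2, red above and blue below) for each of the 89 members (rows, by complex) and each array (columns). The first knockout column is below the gene's mean for most members, while it is the highest of the 6 for Sdha, Cox6a2, Cox8a, Ndufs4 and Sdhaf2.

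Leaving out the first knockout array gave larger differences. The median difference of all members became 0.184 instead of 0.063, and complex V turned from -0.052 to 0.079. With 2 knockout arrays against 3 wild-type arrays, 24 of 89 members (14 in complex I, 1 in complex II, 3 in complex III, 3 in complex IV, 2 in complex V and 1 factor) had an unadjusted limma p under 0.05, all higher in the knockout. Over all genes 18.5% were higher and 10.8% lower at that level, and 0.00987% passed an adjusted p of 0.05. No member passed: the smallest limma adjusted p was 0.0603 for Cox7b2 (difference 0.48), followed by 0.0704 for Ndufb4 (difference 0.52). Without knockout array 2 or knockout array 3 the median of all members was 0.012 and -0.001, so the sign and size of the median depend on which knockout array is kept.

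Genes elsewhere in the pathway gave no call between genotypes. Of 37 measured assembly factors outside the prefixes, 0 were called, and 28 were higher and 9 lower, or 19 and 18 after the shift to 1 common median. Uqcc1, an assembly factor of complex III, read 5.58, 6.18 and 6.58 in the knockout and 5.35, 5.03 and 5.51 in the wild type. Its groups did not overlap, and its difference of 0.82 (SE 0.26, limma adjusted p = 0.907) was larger than that of any of the 89 members. Of the 37, 2 had all knockout arrays above the wild type and 0 had them below, or 5.41%, against 8.69% of all genes. Cox20, an assembly factor of complex IV, read 9.89, 10.32 and 9.99 against 9.79, 9.81 and 9.77 (difference 0.28, SE 0.14). Of 12 other subunits and carriers, 7 were higher and 5 lower, or 4 and 8 after that shift. The ADP and ATP carrier Slc25a4 differed by -0.20 (SE 0.12), with all knockout arrays below the wild type, and Dhodh, which passes electrons from pyrimidine synthesis to ubiquinone, by 0.18 (SE 0.12). Slc25a4 was the only 1 of these 12 without overlap (8.33%, against 8.69% of all genes).

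Regulators and other mitochondrial genes gave no call either. Of 17 transcriptional regulators, 8 were higher and 9 lower, or 5 and 12 after the shift. Esrra, a nuclear receptor that activates respiratory chain genes, read 5.90, 6.01 and 5.75 in the knockout and 5.76, 5.58 and 5.56 in the wild type (difference 0.26, SE 0.13, limma adjusted p = 0.907). Of 18 tricarboxylic acid cycle genes, 10 were higher and 8 lower, or 7 and 11 after the shift, led by Pdhx of the pyruvate dehydrogenase complex (0.16, SE 0.11) and the malate dehydrogenase Mdh2 (0.14, SE 0.11), both with all knockout arrays above the wild type. Ogdh, of the oxoglutarate dehydrogenase complex, lay below it (-0.11, SE 0.11), so that 3 of the 18 did not overlap, or 16.7%, against 8.69% of all genes. Of 18 genes of mitochondrial mass and structure, 11 were higher and 7 lower, or 5 and 13 after the shift, and the chaperones Hspa9 and Hspd1 differed by -0.18 (SE 0.11) and -0.16 (SE 0.12). Rows for 2 of the mitochondrially encoded subunits had a single symbol. COX2 of complex IV read 12.08, 12.30 and 12.24 in the knockout and 12.26, 12.41 and 12.16 in the wild type. ND6 of complex I read 8.47, 9.26 and 9.22 against 8.96, 8.92 and 8.75. Both were lowest on the first knockout array.

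The low position of the first knockout array was not limited to respiratory chain genes. The 75 mitochondrial ribosomal protein genes, taken by prefix after the other lists were set, had centred medians of -0.172, 0.141 and 0.191 on the knockout arrays and -0.013, -0.088 and -0.051 on the wild-type arrays. Of them 58 were higher and 17 lower between genotypes, or 38 and 37 after the shift to 1 common median, with a median of 0.101, 0 calls, and 10 with all knockout arrays above the wild type, a pattern of 6.21% of all genes. The 60 cytosolic ribosomal protein genes, also taken by prefix, had centred medians of -0.197, 0.177 and 0.121 on the knockout arrays and 0.098, -0.073 and -0.156 on the wild-type arrays, with 47 higher and 13 lower between genotypes, or 26 and 34 after the shift.

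Cell type markers also stood apart on the first knockout array. The 9 measured acinar markers had a centred median of -0.489 on the first knockout array and of 0.019 to 0.238 on the other 5. The acinar transcription factor genes were low there: Bhlha15 read 8.61 against 9.60 to 10.06 elsewhere, Ptf1a 7.29 against 8.18 to 8.71, and Rbpjl 8.26 against 9.14 to 9.92. The enzyme gene Cela1 was less so, at 13.59 against 13.76 to 13.85. The 8 leukocyte markers had a centred median of 0.607 on that array, of -0.553 and -0.574 on the other knockout arrays, and of 0.016 to 0.221 on the wild-type arrays. Ptprc read 9.92, 8.61 and 8.38 in the knockout and 9.44, 9.17 and 9.60 in the wild type. All 8 leukocyte markers had a lower mean in the knockout, with a median difference of -0.394 and 0 calls. Markers of other cell types were mostly low on the first knockout array, with centred medians of -0.591 for 6 fibroblast, -0.511 for 4 islet, -0.626 for 4 endothelial, -0.330 for 3 duct and -1.24 for 2 erythroid markers; the endothelial ones were lower still on the first wild-type array (-0.708). Between genotypes the 6 fibroblast markers were all lower in the knockout, with a median of -0.450. Of the 4 islet markers 3 were lower, with a median of -0.438, and Gcg and Sst had all knockout arrays below the wild type. That was 50% of the islet markers, against 2.47% of all genes. None of these markers was called. The part of these cell types in the members' values was not tested.

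The promoters of the members were searched for motifs that are known for this group of genes. RefSeq windows of GRCm38.p6, from 250 bases before to 50 after a gene's start, matched 72 members by Entrez gene number, with 76 windows. The NRF1 motif, GCGCA followed after 1 free base by GCGC, is bound by a factor known to activate respiratory chain genes. It was in 18 of the 76 windows (23.7%), against 4.6% of all 32851 RefSeq windows. Those windows belong to 27025 genes and were not limited to the 20259 genes measured here. The ETS motif CCGGAAG, bound among others by GABP, also called NRF2, was in 20 (26.3%, against 8.86%). The YY1 motif AAGATGGC was in 10 (13.2%, against 2.75%). The SP motif GGGCGG was in 37 (48.7%, against 35.7%), the CRE motif TGACGTCA in 2 (2.63%, against 1.79%) and the TATA motif TATAAA in 10 (13.2%, against 13.6%). Motifs were searched on both strands. The members' windows had a median GC content of 58.7%, against 52.7% over all windows, which was not matched in these shares.

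The motifs were spread over the complexes. NRF1 was in 5 of 29 complex I members, 2 of 3 of complex II, 1 of 5 of complex III, 1 of 12 of complex IV, 4 of 12 of complex V and 4 of 11 factors. YY1 was in 7 of the 29 complex I members and in none of complexes II, III and IV. The stretches of 150 bases before the start of 4 members are shown 5′ to 3′ on the gene's strand: Ndufa12 for its lead in the comparison, and Sdhd, Cox6a1 and Ndufs6 as examples of an NRF1 match. Capitals mark the NRF1 and ETS matches on either strand. Ndufa12 lies at chr10:94198885-94199034 on the plus strand, and the others on the minus strand at chr9:50603850-50603999 (Sdhd), chr5:115348959-115349108 (Cox6a1) and chr13:73328483-73328632 (Ndufs6).
Ndufa12: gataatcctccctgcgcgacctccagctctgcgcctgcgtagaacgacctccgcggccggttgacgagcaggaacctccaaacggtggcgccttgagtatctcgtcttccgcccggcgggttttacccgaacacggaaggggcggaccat
Sdhd: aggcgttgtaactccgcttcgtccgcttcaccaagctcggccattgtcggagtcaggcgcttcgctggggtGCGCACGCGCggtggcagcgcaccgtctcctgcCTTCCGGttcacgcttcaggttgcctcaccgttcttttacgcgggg
Cox6a1: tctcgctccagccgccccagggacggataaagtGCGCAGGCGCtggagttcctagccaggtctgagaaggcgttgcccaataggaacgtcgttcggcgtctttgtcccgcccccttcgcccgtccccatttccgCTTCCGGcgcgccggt
Ndufs6: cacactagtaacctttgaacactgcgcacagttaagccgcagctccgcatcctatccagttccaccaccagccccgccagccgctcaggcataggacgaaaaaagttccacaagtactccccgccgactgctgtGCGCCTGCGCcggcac
Ndufa12 has no NRF1, ETS or YY1 match in its whole window, while Sdhd and Cox6a1 hold an NRF1 and an ETS match each. Ndufs6, the zinc-binding subunit of complex I, read 8.08, 8.71 and 8.71 in the knockout and 8.58, 8.63 and 8.26 in the wild type. Of the 17 members with an NRF1 match, the first knockout array was the lowest of the 6 for 11 (64.7%) and the highest for Sdha, and of the 55 with a window and no match it was the lowest for 32 (58.2%). A match is a description of letters and not a site.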

How the data were processed

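The deposited values are log2 expression, 1 column for each of the 6 arrays per the file headers. Per the submitters' processing notes the authors used Partek and RMA, whose versions are not stated. RMA subtracts background, puts the arrays on a common scale and combines probes, which compresses small values. Genome build, detection calls and scan dates are not given, so signal over background and batches were not tested, and the number of arrays limits the precision.

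Of 115830 rows, 25539 had 1 symbol in the platform annotation, 2300 several, and 87991 were unnamed here. Each gene was represented by its single-symbol row with the highest mean, which gave 20259 genes. The 114 such rows of members gave 89 members. Knockout minus wild type was fitted by lmFit and eBayes of limma 3.58.1 (R 4.3.3) without trend, block or filter, with Benjamini-Hochberg adjustment over all genes and a threshold of 0.05. Single values had an exact two-sided permutation test. The fit was tested on simulated data of 20259 genes for this comparison: with 200 genes changed it recovered 0% at 0.5 log2, 53% at 1 and 87.5% at 2, so changes of the members' size would not be called. Sets are described by counts and medians with no test. The named genes are the 4 members of smallest p in each complex and in the factors, every member whose groups do not overlap, the isoform genes and 2 genes of each other list. Members, lists and rules were chosen with earlier results of these data known. Alternatives were 2 normalizations, 2 filters, 2 choices of row, trend and robust settings, array weights, a replicate block, an adjusted p of 0.1 and each array left out. Promoter windows came from a RefSeq table.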

Additional observations from a re-analysis of the deposited data

Results flagged for a closer look

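The second row of Ndufab1, which was not used in the comparison because its mean was lower than that of the first row, had all knockout arrays (5.42, 5.48 and 5.55) above all wild-type arrays (5.33, 5.33 and 5.40). The difference was 0.127 on the log2 scale, below the 0.27 of the row used, whose groups overlapped. It was picked out because data outside the comparison lay above the wild-type level, and groups do not overlap with the knockout above for 6.21% of all genes.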

How the results depend on the processing

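No member was called under any alternative except array weights, which called 18, all higher, when 14.9% of all genes were called higher. Those weights gave the second knockout array 8.57 and the first 0.142, and their estimation stopped before it converged. Members at an unadjusted limma p under 0.05 numbered 3 in the main fit, where 3.49% of all genes lay under it. They numbered 1 under quantile normalization, 1 with the mean of rows and 32 with array weights (31 higher, 1 lower). With 1 array left out they numbered 1 to 24, and 24 without knockout array 1, where 18.5% of all genes were higher and 10.8% lower. The other counts have no share of all genes beside them and are no result about the members. With array weights the medians of complexes II and III were 0.233 and 0.353, and with arrays shifted to 1 median that of complex V was -0.136. With 1 array left out, the medians ran from -0.001 to 0.184 for all members, 0.006 to 0.230 for complex I, 0.013 to 0.212 for complex II, 0.051 to 0.285 for complex III, -0.066 to 0.083 for complex IV, -0.095 to 0.079 for complex V and -0.027 to 0.115 for the factors. After the shift, 43.1% of all genes were higher, against 61.7%. The causes were not tested.

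The labels number replicates 1 to 3 in both groups and do not say whether samples of the same number are paired. Deviations from the group means correlated at r = 0.041, 0.138 and -0.153 for samples of the same number. For samples of different numbers r ran from -0.180 to 0.149. With 3 arrays per group these values cannot show whether samples were processed together. With the replicate block, 0 members were called, and the median of all members stayed at 0.063.

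Of 35 named members, 16 changed sign under an alternative and 19 did not. Array weights turned Ctnnd1 to 0.20, Ndufaf8 to 0.0281, Sdha to -0.0225, Cox6a2 to -0.0231, Cox4i1 to 0.0923, Cox6b2 to 0.136, Cox7a2 to 0.0203, Ndufa4 to 0.0220, Atp5g1 to 0.129 and Atp5g3 to 0.0188. The shift to 1 median turned Sdha to -0.0526, Sdhd to -0.0569, Cox6a1 to -0.0215, Cox7b to -0.0481 and Cox8c to -0.0665. Quantile normalization turned Cox8c to -0.0658, Atp5g1 to 0.0136 and Atp5g3 to 0.00784, and the mean of rows turned Cox6a1 to -0.0789. With 1 array left out, differences ran from -0.421 to 0.123 for Ctnnd1, from -0.0334 to 0.205 for Sdhb, from -0.0418 to 0.0876 for Sdha, from -0.0996 to 0.220 for Sdhd, from -0.0397 to 0.419 for Uqcrb, from -0.0322 to 0.169 for Cox6a2, from -0.195 to 0.0153 for Cox4i1, from -0.0729 to 0.304 for Cox6a1, from -0.0396 to 0.310 for Cox6b1, from -0.212 to 0.00416 for Cox6b2, from -0.153 to 0.0617 for Cox7a2, from -0.0616 to 0.0777 for Cox8c, from -0.267 to 0.229 for Atp5g1 and from -0.100 to 0.0331 for Atp5g3.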
